A study of Triticum aestivum with 4 samples.

Results

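The transcripts described here had a higher signal in polyethylene glycol (PEG) than in water in roots of the wheat cultivar Chinese Spring (CS), with little difference in the cultivar Luohan No.2 (LH). Of 61115 probe sets on the array, controls left out, 129 met the rule that defines them. Signals below 25 were set to 25, and a member had to reach 100 or more on the CS PEG array and be 3-fold or more above the water array. In LH the PEG to water ratio had to lie between 0.67 and 1.5, with both signals above 25. Another 3 probe sets met these limits but were left out by the rule, because the annotation pairs them with genes the rule names. The members were chosen by the signals of these same 4 arrays, so the size of the CS difference and the small LH difference describe the selection and are no findings.

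Each of the 4 arrays held RNA from the roots of common wheat (Triticum aestivum) seedlings at the 2-leaf stage. LH and CS were each kept for 6 h in tap water or in PEG 6000 at an osmotic potential of -0.49 MPa, with 1 array for each combination. There is therefore no spread between samples, no difference below has a test, and the labels do not say how many seedlings entered a sample. For each cultivar, signals are listed with water first and PEG second. A root is a mixture of cell types, and in such bulk samples fewer cells of a type and less RNA per cell cannot be told apart.

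PEG of high molecular weight stays outside the cell and lowers the water potential around the root. Plants answer such osmotic stress with abscisic acid signalling, protective proteins such as dehydrins and other late embryogenesis abundant proteins, compatible solutes, and changes in water uptake and growth. Bread wheat is a hexaploid, so most genes are present as closely similar copies on its subgenomes, and probes of 1 set can bind several of them. In names of Affymetrix probe sets, the first number marks a sequence cluster and the next a sub-cluster. An ending in _a_at marks probes shared by transcripts of the same gene, _s_at probes shared by transcripts of different genes, and _x_at probes that may cross-hybridise.

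Signals on the arrays had been scaled to a common level, with 2% trimmed means of 100.02 on each, and between 13045 and 13718 probe sets lay above 100. Over the 19976 probe sets above 25 on all 4 arrays, the median log2 change with PEG was -0.06 in CS and 0.01 in LH. Sucrose synthase, a control probed at both transcript ends, gave a 5-prime over 3-prime ratio of 0.0554 and 0.0216 in LH and of 0.0805 and 0.0693 in CS. This measure of RNA quality was lowest on the LH PEG array, and its part in the small LH changes was not tested. The array gives a partial view of noise through sequence clusters that have several probe sets. Within clusters, the SD of the log2 change with PEG was 0.51 in LH and 0.36 in CS above the floor of 25. It was 0.43 and 0.27 above 100. The LH limits lie at about 0.58 on either side of 0 on the log2 scale and are thus little wider than that SD, while the CS limit of 1.58 is several times it.

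Of the 13087 probe sets that met the signal limits alone, 500 (3.82%) were 3-fold or more higher in PEG in CS, and the 129 members made up 0.986% of the 13087. Among the 500, LH was 3-fold or more higher in PEG for 161 (2.09% of the 13087 were so high in LH), between 1.5-fold and 3-fold higher for 183, inside the members' limits for 129 and below 0.67 for 27. The members were thus a minority of what was higher in CS, and over the 500 the median LH change was 1.13 on the log2 scale, or 2.19-fold. Of all 13087, 62.8% had an LH ratio between 0.67 and 1.5. The median PEG to water ratio of the members was 4.06 in CS (quartiles 3.42 and 5.32) and 1.03 in LH, where 73 were higher and 56 lower in PEG. The 161 probe sets that were 3-fold or more higher in both cultivars had a larger median of 7.73-fold in CS and 4.49-fold in LH.

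**Figure D1:**
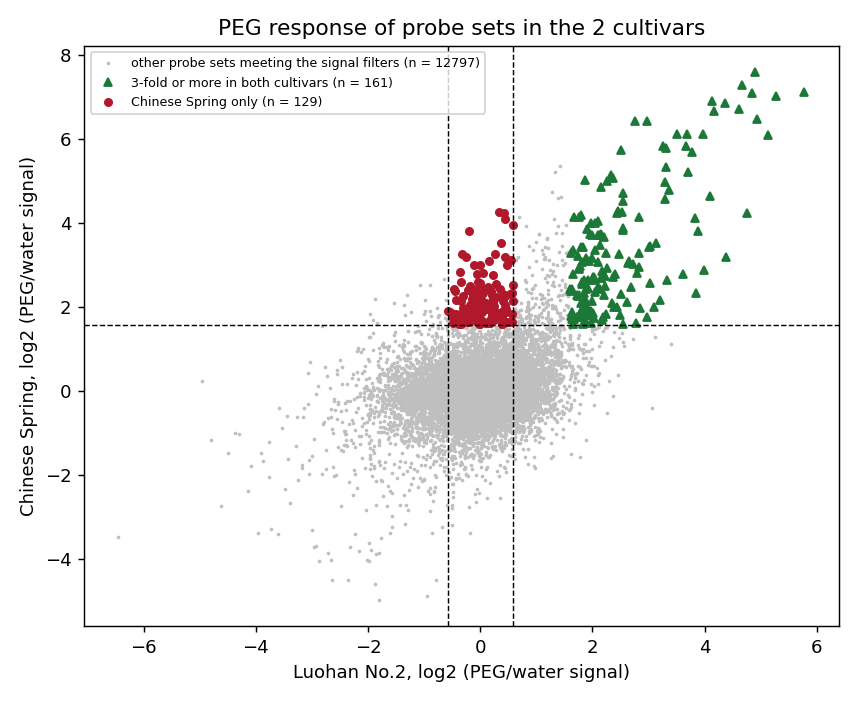
Log2 PEG/water signal ratio in LH (x axis) and CS (y axis) for the 13087 probe sets that met the signal limits; circles are the 129 members, triangles the 161 probe sets 3-fold or more higher in both cultivars, and dashed lines the limits of the rule. The members continue a cloud that extends across the upper LH limit, where 183 probe sets lay between 1.5-fold and 3-fold.

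Members differed widely in level. On the CS PEG array the signals ran from 100.1 to 4180.8 with a median of 365.9, and on the water array of the same cultivar from 1.8 to 1380.4 with a median of 80.6. In LH the median was 134.6 in water and 127.2 in PEG. Of the members, 94 reached 200 in CS PEG, 45 reached 500 and 23 reached 1000. For 12 members the CS water signal was at or below 25, so that their ratio is a lower bound. All of these 12 except Ta.681.1.S1_x_at stayed below 229 in PEG.

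The largest ratio belonged to Ta.681.1.S1_x_at, with signals of 64.3 and 81.0 in LH water and PEG and of 3.6 and 477.5 in CS. It was at least 19.1-fold higher in PEG in CS and 1.26-fold higher in LH. Ta.14301.1.S1_s_at had 179.7 and 241.4 in LH and 88.9 and 1678.2 in CS, an 18.9-fold difference. TaAffx.128488.2.S1_s_at, at 124.1 and 168.7 in LH, went with 111.2 and 1908.9 in CS, a 17.2-fold difference. In PEG the CS signal of these 3 was between 5.90-fold and 11.3-fold above that of LH. In water LH was above CS in each, and for Ta.681.1.S1_x_at by at least 2.57-fold, since the CS signal lay below the floor. Ta.7091.1.S1_at had 78.8 and 117.7 in LH, just inside the upper limit at a ratio of 1.49, and 59.7 and 921.2 in CS, a 15.4-fold difference. Ta.16540.1.S1_at had 136.4 and 175.9 in LH and 65.6 and 761.2 in CS, an 11.6-fold difference. Ranked between these, Ta.5645.2.S1_a_at had 392.2 and 340.4 in LH and 53.7 and 750.2 in CS, a 14.0-fold difference. Of these 6 members with the largest CS ratios, Ta.5645.2.S1_a_at was lower in LH PEG than in water, at a ratio of 0.868, and the other 5 were between 1.26-fold and 1.49-fold higher. Next came Ta.5645.2.S1_x_at at 9.62-fold in CS, Ta.13575.1.S1_at at 9.54-fold, Ta.25515.1.S1_at at 9.16-fold and Ta.5718.2.S1_a_at at least 9.15-fold. In all, 6 members reached 10-fold and 38 reached 5-fold.

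Of the 10 members with the highest CS PEG signal, all but TaAffx.128488.2.S1_s_at had ratios below the 10 largest. Those ratios ran from 3.03-fold to 8-fold, where the median over all members was 4.06-fold. Ta.1577.1.S1_at had 1812.9 and 1805.7 in LH and 1380.4 and 4180.8 in CS, a 3.03-fold difference. Ta.5545.1.S1_at had 678.8 and 737.2 in LH and 692.3 and 2132.0 in CS, a 3.08-fold difference. In both, 3 arrays gave similar signals and the CS PEG array stood alone. Ta.28695.3.S1_at was at 143.5 and 142.5 in LH and at 292.8 and 1753.7 in CS, so it was already 2.04-fold higher in CS in water. Its neighbour Ta.28695.3.S1_x_at, from the same sub-cluster, had 283.5 and 377.1 in LH and 727.9 and 3630.8 in CS. Ta.14224.1.S1_at had 453.5 and 420.6 in LH and 221.9 and 1774.9 in CS, an 8-fold difference that was the largest among the 10 brightest after TaAffx.128488.2.S1_s_at. The others of the 10, Ta.8866.1.S1_at, Ta.954.1.S1_s_at, Ta.28411.1.A1_at and Ta.28784.1.S1_x_at, were between 3.89-fold and 4.83-fold higher in CS PEG.

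**Figure D2:**
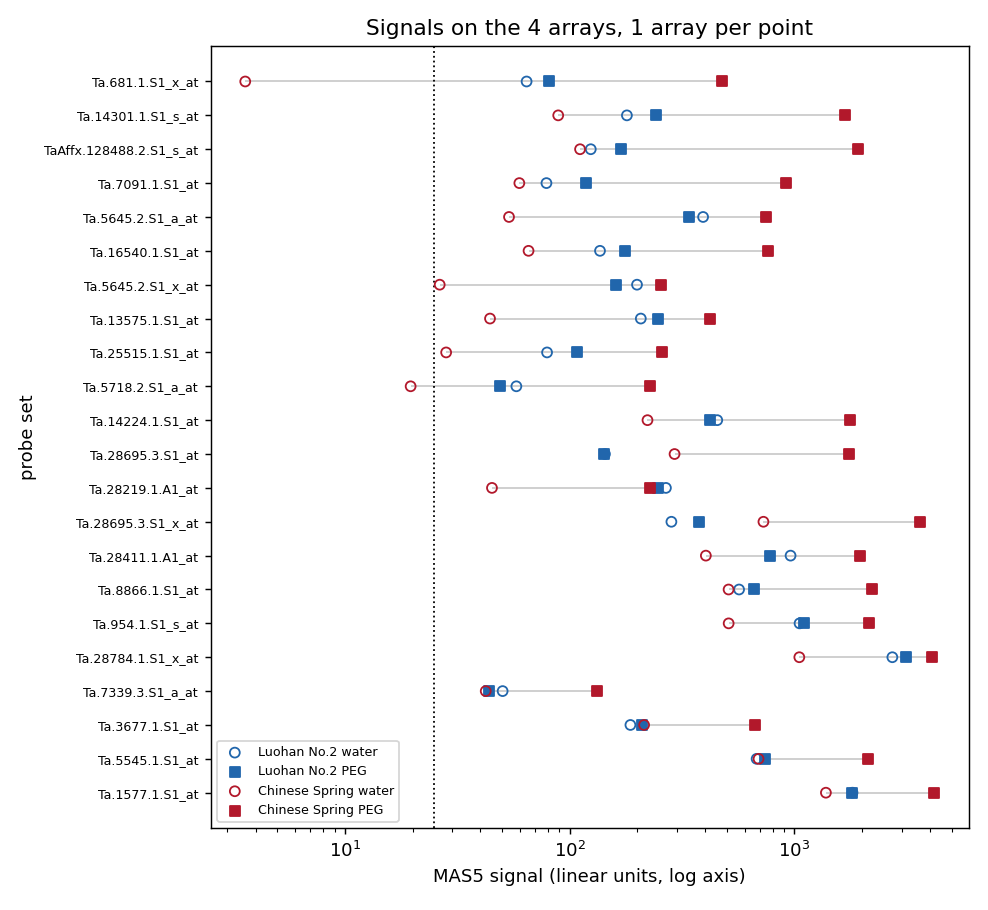
MAS5 signal (x axis, log scale) of the members with the 10 largest CS ratios, the 10 highest CS PEG signals or a paired gene (rows, by ratio); open circles are water and filled squares PEG, blue LH and red CS, 1 array per point, and the dotted line is the floor of 25. The LH points lie close together, and for many rows they lie between the CS water and PEG points, as for Ta.16540.1.S1_at at 136.4 and 175.9 against 65.6 and 761.2.

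The limits of the rule cut through a continuous range. Nearest to the CS fold limit, Ta.22063.1.S1_s_at and Ta.16248.1.S1_at were inside at 3.01 and 3.02, and Ta.5834.2.S1_at and TaAffx.44342.1.S1_at outside at 2.997 and 2.99. At the upper LH limit, Ta.21702.1.S1_at and Ta.1213.1.A1_x_at were inside at ratios of 1.498 and 1.496, and Ta.5236.2.S1_a_at and Ta.8889.2.A1_a_at outside at 1.502 and 1.52. At the lower LH limit, Ta.3284.1.S1_at and TaAffx.95738.1.S1_at were inside at 0.6701 and 0.693, and Ta.11101.3.S1_a_at and Ta.25627.1.A1_x_at outside at 0.6671 and 0.656. For the signal limit, TaAffx.95738.1.S1_at and TaAffx.37661.1.A1_at were inside at 100.1 and 102.5, and TaAffx.27219.2.S1_at and Ta.3436.1.S1_at outside at 98.8 and 98.7. For the lower of the LH signals, TaAffx.37661.1.A1_at and Ta.6120.1.S1_at were inside at 25.5 and 27.4, and Ta.1973.1.S1_at and Ta.8266.1.A1_s_at outside at 24.2 and 22.9.

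The level in LH relative to CS was not a limit of the rule, although the CS signals entered both. In water, 52 of the 129 members (40.3%) were at least 2-fold higher in LH, against 5.32% of the 13087 probe sets with the same signal limits. The reverse, at least 2-fold higher in CS, held for 8 members (6.20%) against 5.56%. At the median, LH exceeded CS in water by 0.82 log2 units, or 1.76-fold. A rule that asks for a large PEG to water ratio favours low CS water signals, so a difference in this direction is in part built in. Of all 500 with the same CS limit, members included, 137 (27.4%) were at least 2-fold higher in LH in water. Where LH was 3-fold or more higher in PEG as well, this held for 21 of 161 (13.0%), with a median of 0.14. The LH limit of that group favours low LH water signals, so its share is lowered by selection. Under the mirrored rule, with the cultivars exchanged, 83 probe sets were higher in PEG in LH only, and 23 of them (27.7%) were at least 2-fold higher in CS in water. These shares have no test.

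In PEG the cultivar difference was bound to shift towards CS, since the rule asked for a CS ratio of 3 or more and an LH ratio of at most 1.5, so the following is a description. There 80 members (62.0%) were at least 2-fold higher in CS, against 9.80% of the 13087, and 2 were at least 2-fold higher in LH, against 5.69%. Of the 161 higher in both cultivars 39.1% were at least 2-fold higher in CS in PEG, and of the 83 under the mirrored rule 65.1% were at least 2-fold higher in LH. The median difference was -1.29 on the log2 scale, LH minus CS, which is a 2.45-fold higher signal in CS. For 91 members both LH signals lay between the CS water and PEG signals. For 16 both lay below the CS water signal.

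By their level in water the members fell into unequal groups. In the largest, 69 members (53.5%), the floored signals of the cultivars were within 2-fold of each other in water, with median signals of 87.1 in LH and 72.7 in CS. Those members then had a median of 344.7 in CS PEG. In 44 members (34.1%) LH was at least 2-fold higher in water but below the CS PEG signal, with medians of 206.95 in LH water, 70.35 in CS water and 328.35 in CS PEG. In 8 members the LH water signal was at or above that of CS PEG, and in 8 it was 2-fold or more below CS water.

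The members with high LH signals in both conditions included some of the brightest there. Ta.456.1.S1_at had 2025.1 and 1926.6 in LH water and PEG and 247.2 and 1121.2 in CS. Ta.28623.1.S1_x_at had 1468.4 and 1354.1 in LH and 133.1 and 486.6 in CS. TaAffx.131611.1.S1_at had 782.5 and 563.7 in LH and 26.1 and 141.2 in CS, a 29.98-fold difference between the cultivars in water and the largest among the members. In these 3 the CS PEG signal stayed between 1.72-fold and 3.99-fold below that of LH in PEG. At the other end, Ta.7741.1.S1_at had 40.4 and 48.1 in LH and 116.0 and 393.2 in CS, with CS above LH 2.87-fold in water and 8.17-fold in PEG. Ta.3608.1.S1_at, at 37.2 and 37.4 in LH and 82.7 and 376.3 in CS, was 2.22-fold and 10.1-fold higher. Ta.28695.3.S1_x_at, Ta.27685.3.S1_a_at and Ta.2632.3.S1_x_at followed, between 2.16-fold and 2.57-fold higher in CS in water.

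**Figure D3:**
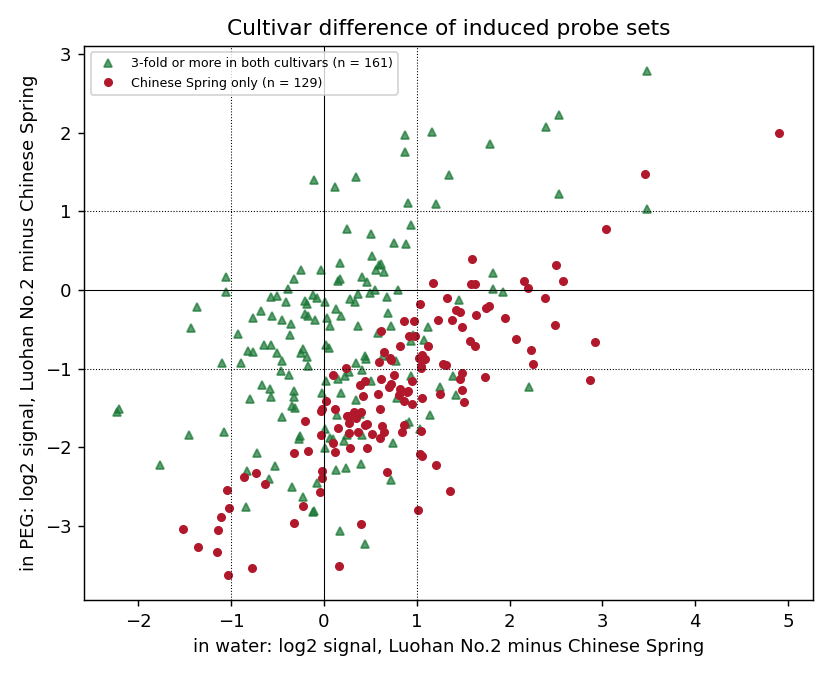
Difference in log2 signal, LH minus CS, in water (x axis) and in PEG (y axis) for the 129 members (circles) and the 161 probe sets 3-fold or more higher in both cultivars (triangles); dotted lines mark 2-fold. The members spread along a band below the diagonal, which the rule fixes, with a median of 0.82 in water and -1.29 in PEG.

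The 129 members belonged to 116 sequence clusters, and 12 clusters held 25 of the members. Such members share arrays, RNA and often probes. Within a cluster their CS ratios were 3.03 and 3.02 for Ta.8788.1, 3.87 and 3.82 for Ta.27685.3, and 3.55 and 3.25 for Ta.920.2. They were 3.78 and 3.16 for TaAffx.111573.1, and 3.74 and 3.12 for Ta.10822.2 and Ta.10822.3. The rule asked each member for a ratio of 3 or more, so pairs near 3 are close in part by selection. The 3 Ta.2632 members had ratios of 5.90, 4.94 and 4.77, those of Ta.28695.3 had 5.99 and 4.99, and those of Ta.13575.1 had 9.54 and 6.90. Those of Ta.22954 had 8.55 and 5.55, those of Ta.1022.2 had 5.67 and 3.77, and those of Ta.5645.2 had 14.0 and 9.62. They were farthest apart for Ta.681, at least 19.1 and 7.97.

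Other probe sets of these clusters bear on whether the pattern follows the sequence. There were 102 of them in 51 clusters, and 81 were above 25 on a CS array. Of these 81, 20 (24.7%) were 3-fold or more higher in CS PEG, against 2.07% of all 31121 non-members measured there, and 55 (67.9%) were 2-fold or more higher, against 5.77%. Their median log2 change was 1.30, against -0.05. The share at 2-fold was 17 of 19 (89.5%) in the same sub-cluster as a member and 38 of 62 (61.3%) in another. Probe sets of the same sub-cluster may share probes, and all were read on the same arrays. In CS, then, other probe sets of the clusters were mostly higher in PEG too. For 68 members the cluster held no probe set outside the members.

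In LH many of these other probe sets lay above a ratio of 1.5. Of the 54 that were 2-fold or more higher in CS PEG and measured in LH, 39 (72.2%) were 1.5-fold or more higher in LH PEG and 18 (33.3%) were 2-fold or more higher. Of non-members chosen in the same way 54.3% were 1.5-fold and 36.7% were 2-fold or more higher in LH. Above a signal of 100 in each cultivar, the shares at 1.5-fold were close, 71.4% for the other probe sets of the clusters and 68.4% for non-members. At 2-fold they were 38.1% and 48.8%, and at 3-fold 16.7% and 28.9%. The median LH log2 change was 0.80 and 0.97. Of all non-members measured in both cultivars, 6.36% were 2-fold or more higher in LH. Leaving out members takes away those that stayed near 1, so the count was repeated over every probe set whose cluster holds another member, the 25 included. Of 98 such probe sets measured in both cultivars, 47 had an LH ratio between 0.67 and 1.5, 43 were 1.5-fold or more higher in LH PEG, and 8 were below 0.67. Their median LH change was 0.52 on the log2 scale, or 1.43-fold, against -0.01 over all 24845 probe sets so measured. Of the 45 that were 3-fold or more higher in CS PEG, 25 met the limits in LH as members, and 19 (42.2%) were 1.5-fold or more higher in LH, against 68.2% of all 720 probe sets so high in CS. A probe set entered this count through another member of its cluster, whatever its own LH ratio. The share of 42.2% is a description, since probe sets of a cluster may share probes and were read on the same arrays. With members left out the share was 19 of 20 (95%), against 83.1% of 591 non-members, and it is raised by selection. In a cluster with probe sets outside the members, the rule holds for some and not for others by definition. Some of those outside missed the CS limit and some the LH limit.

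The brightest of these other probe sets show the range. Ta.14301.1.S1_at, from the same sub-cluster as the member Ta.14301.1.S1_s_at, had 1576.7 and 4659.7 in LH and 1026.0 and 10149.8 in CS. It was thus 2.96-fold higher in LH PEG, where the dimmer member gave 1.34. Ta.28695.2.S1_s_at had 140.9 and 881.4 in LH, a 6.26-fold difference, and 478.1 and 4110.0 in CS. Its cluster also held Ta.28695.6.S1_at, with 124.7 and 35.0 in LH, a PEG to water ratio of 0.281, and 1966.4 and 6049.2 in CS. Together with the members Ta.28695.3.S1_at and Ta.28695.3.S1_x_at, that cluster gave LH ratios on both sides of 1. Ta.8866.2.S1_at had 2332.3 and 4916.4 in LH and 2455.4 and 6031.4 in CS, so the responses of that probe set were similar at 2.11-fold and 2.46-fold. By contrast, Ta.920.1.S1_x_at had 4237.4 and 4093.3 in LH and 2064.5 and 5306.4 in CS, a 2.57-fold difference in CS with a ratio of 0.966 in LH. Ta.28055.2.S1_a_at was 1.31-fold higher in CS PEG with a ratio of 0.855 in LH. Ta.16450.1.S1_a_at, Ta.6017.1.S1_at, Ta.10389.2.S1_at and Ta.13165.3.S1_a_at were between 2.37-fold and 3.31-fold higher in CS PEG and between 1.59-fold and 1.80-fold higher in LH PEG.

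In 83 of the 116 clusters the probe set with the highest mean signal over the 4 arrays was a member. Only 51 of the 116 held a probe set outside the members, so in the rest a member was brightest by necessity. In the 33 clusters where the brightest probe set was not a member, it had a median ratio of 2.77 in CS and 1.68 in LH. Of those 33, 25 were 2-fold or more higher in CS PEG, 23 were over 1.5-fold higher in LH PEG and 7 lay inside the LH limits. Of all non-members measured, 5.77% were 2-fold or more higher in CS PEG and 17.3% were 1.5-fold or more higher in LH PEG. The rule took away probe sets that met both its CS and LH limits, which raises the 23 and lowers the 7.

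**Figure D4:**
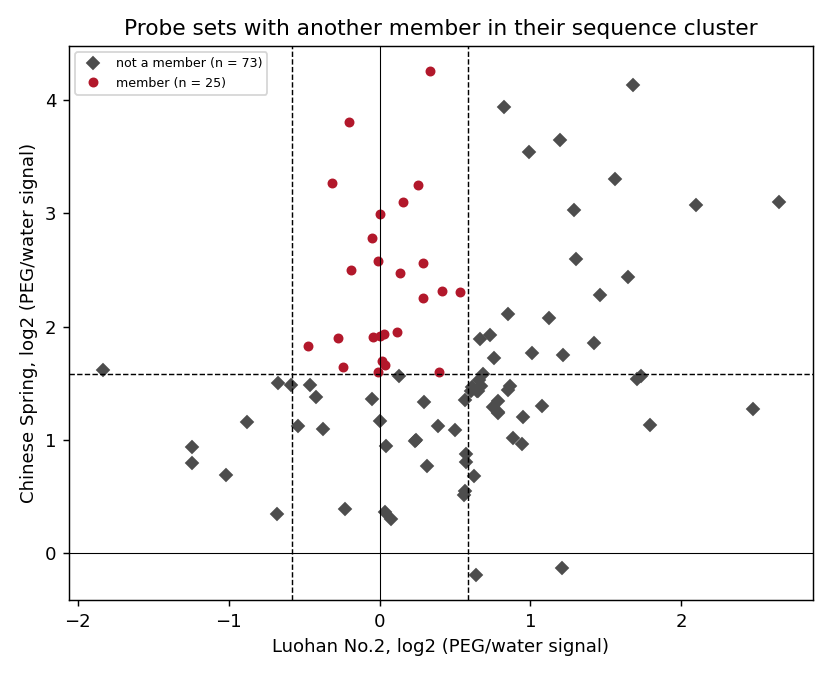
Log2 PEG/water ratio in LH (x axis) and CS (y axis) for the 98 probe sets with another member in their sequence cluster that were measured in both cultivars; circles are members (25) and diamonds are not (73), and dashed lines mark the limits of the rule. Nearly all points lie above 0 for CS, while in LH they run from -1.83 to 2.65.

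The annotation paired 1273 probe sets of the array with 771 genes (770 had an entry in RefSeq), and only 4 of the 129 members had such a gene. All 4 genes are protein-coding and carry locus numbers as names, and no function is given for them in the tables used here. LOC542993 was paired with the member Ta.28219.1.A1_at, at 268.0 and 246.6 in LH and 45.1 and 227.6 in CS. Its other probe set Ta.3679.1.S1_x_at followed the same order, with 503.7 and 461.3 in LH and 101.8 and 280.5 in CS, while Ta.28219.2.S1_at was at 31.3, 46.1, 29.6 and 42.2 on the same arrays. Both brighter probe sets of LOC542993 thus had an LH ratio of 0.92 and higher LH signals in water.

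LOC543254 was paired with Ta.28784.1.S1_x_at, at 2727.0 and 3128.0 in LH and 1051.3 and 4085.6 in CS. Its other probe set, Ta.28784.1.A1_at, was 5.55-fold higher in LH PEG (53.8 and 298.6) and 2.42-fold higher in CS PEG (63.8 and 154.6). The probe sets of this gene therefore disagreed on which cultivar responded more. LOC780636 was paired with Ta.7339.3.S1_a_at, at 50.3 and 43.6 in LH and 42.3 and 132.5 in CS. Its brighter probe sets Ta.7339.1.S1_at and Ta.7339.1.S1_x_at were 2.70-fold and 2.99-fold higher in CS PEG and 1.57-fold and 1.61-fold higher in LH PEG. LOC542881 had a single probe set, Ta.3677.1.S1_at, at 186.3 and 210.2 in LH and 214.3 and 667.7 in CS.

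None of the members was on the list of 51 names for dehydration and abscisic acid response genes, of which 5 genes with 10 probe sets were found. The list was matched by gene name, and only 4 of the 129 members had a paired gene. This absence therefore says little about what the members are. LEA1 and Rab15, late embryogenesis abundant proteins, were higher in PEG in both cultivars and so could not be members. LEA1 had 47.1 and 743.7 in LH and 40.5 and 2820.6 in CS. The 3 Rab15 probe sets reached between 134.3 and 577.1 in LH PEG and between 1342.4 and 2736.1 in CS PEG, from at most 20.1 in water. COR410, EM and EMH2 did not exceed 27.0 on any array. Of the 10 probe sets, 4 were 2-fold or more higher in PEG in each cultivar and 0 were 2-fold or more lower.

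Of markers of green tissue, 5 of 8 names were found, with 34 probe sets. Their summed signal was 5933 and 5789 in LH water and PEG and 16869 and 15835 in CS, so it was lower in PEG in both cultivars. Nearly all of it came from a pair of rbcL probe sets, for the large subunit of Rubisco, at 8007 and 7765 in CS for 1 and at 7807 and 7465 for the other. In LH the first was at 2880 and 2678 and the other at 2702 and 2838, so in LH they went in opposite directions. PRK, PsbP and petC, all of the photosynthetic apparatus, stayed at or below 18.6 on both LH arrays. Their highest signals in CS were 288.7 in water and 129.3 in PEG. PsbO, of the same apparatus, was at 50.3 and 17.6 in LH and at 138.9 and 74.7 in CS. Of the root markers, DMAS1, an enzyme of phytosiderophore synthesis, was found, with 3 probe sets between 116.5 and 419.3 on all 4 arrays and no 2-fold difference with PEG in either cultivar. No name of the growing root tip list was found. The part of a green tissue difference in the cultivar differences of the members was not tested.

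The mirrored rules put the number of members in context. Under the same limits 83 probe sets were higher in PEG in LH only, 141 were lower in PEG in CS only, and 235 were lower in PEG in LH only. These are counts and not shares, because the signal limits of each rule admit a different pool of probe sets. Signals above 25 made up 39.4% and 38.8% of probe sets in LH water and PEG and 45.2% and 44.9% in CS. The members outnumbered their mirror image, and this turned when a 2-fold limit was used in both rules, with 385 members against 445. The order of the members and the probe sets lower in CS only, 129 against 141, depended on the setting. It was 141 against 131 with each array scaled to a common median, 93 against 92 with a pseudocount of 25, and 66 against 61 with a 4-fold limit. By name type the members resembled the 13087. Probe sets with a plain _at ending made up 61.2% of the members and 57.2% of the 13087, and _x_at endings 14.7% and 20%. TaAffx names made up 20.9% and 14.7%.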

How the data were processed

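The deposited values are intensities on a linear scale, 1 for each probe set on each array. Per the submitters' processing notes, MAS5 produced them (version not given in the sources used here). Per the values, each array had been scaled to a trimmed mean near 100. MAS5 subtracts mismatch signal, so weak probe sets are noisy. AFFX and RPTR probe sets (175 of 61290) were left out, signals were floored at 25, and ratios and log2 differences were taken between single arrays. Files hold no replicate arrays, so no test, error or p-value was computed, and the number of arrays limits the precision. Members, gene lists and comparisons were chosen with earlier results of these data known. Named are members with a gene, the 10 largest ratios, the 10 highest signals, the extremes between cultivars in water, members sharing a cluster, those nearest each limit, and the 10 brightest other probe sets. Genes come from the platform annotation, updated through RefSeq (IWGSC CS RefSeq v2.1). Alternatives changed the floor, pseudocount, scaling (limma 3.58.1 quantile normalization), limits and probe set choice. Python 3.11.15 and pandas 2.3.3 were used, and the rule was tested on simulated data.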

Additional observations from a re-analysis of the deposited data

Results flagged for a closer look

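Of the members, 56 had a signal in Luohan No.2 that was lower in PEG than in water, by any amount, while they were 3-fold or more higher in PEG in Chinese Spring. The difference was not tested. It is no difference in direction, because the rule fixed the Chinese Spring ratio and kept the Luohan No.2 ratio between 0.67 and 1.5, and 80 of the 129 members lay within a narrower range around 1 in Luohan No.2 (from 0.8 up to its inverse).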

How the results depend on the processing

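With 1 array per group, no replicate could be left out. No paired analysis was possible because each group has 1 array. Each of the 12 alternatives of the rule kept Luohan No.2 higher in water and Chinese Spring higher in PEG at the median of the members. All of them build in the shift towards Chinese Spring in PEG and favour low Chinese Spring water signals, so this says little about robustness. The number of members was between 93 and 156 under 8 of them. It was 385 with a Chinese Spring fold of 2, 66 with 4, 80 with narrower Luohan No.2 limits (from 0.8 up to its inverse), and 83 with the brightest probe set per cluster. With a fold of 2 the median cultivar difference was 0.56 in water and -0.86 in PEG, and with 4 it was -1.57 in PEG. Numbers higher in Luohan No.2 only were 445 with a fold of 2, 31 with 4, 40 with the narrower limits and 52 with a minimum signal of 200. Those lower in Chinese Spring only were 543, 61 and 80 with the first 3 of these and 92 with a pseudocount of 25. Those lower in Luohan No.2 only were 844, 98, 140 and 154 with the same 4, 156 with the pseudocount, 139 without _x_at and _s_at probe sets and 113 with the brightest probe set per cluster. Of other probe sets in the members' clusters, 67.9% and 85.2% were 2-fold and 1.5-fold higher in Chinese Spring PEG. With members that share a cluster included, an alternative chosen after seeing the data, 42.5% were 3-fold higher. Also chosen after seeing the data, 72.2% of those higher in Chinese Spring were 1.5-fold and 14.8% were 3-fold higher in Luohan No.2 PEG. Wider or narrower limits change these counts by construction. Signals near the floor of 25 limit what the dim members show, and no difference here covers variation between plants.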
